A study of Columba livia with 12 samples.

Results

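White-King pigeons (Columba livia) aged 28 days (28D) were compared with birds aged 14 days (14D) in their breast muscle, with 3 libraries of each stage, which are 6 of the 12 libraries of the series. Libraries were assigned to a stage by the age in their labels, and no measured value entered that choice. The series follows breast muscle after hatching over 4 stages, and the 3 libraries of birds 1 day old (1D) entered the model only to estimate the spread between libraries. All groups shared strain, tissue and the stated steps of preparation. The muscle was snap-frozen in liquid nitrogen, total RNA was taken with Trizol, and Illumina libraries were made. The labels do not say whether the libraries came from separate birds, so the p-values measure only the spread between these samples, which may be technical. Expression was given by the authors in TPM, a level corrected for transcript length and scaled to the library's total, in a table of mRNA genes and a table of long noncoding RNAs (lncRNAs).

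The breast muscle, or pectoralis, drives the downstroke of the wing. In pigeons it is built mostly from fast fibres that run on fat and oxygen, held together by collagen made by fibroblasts. Squabs grow quickly in the nest and approach fledging over the weeks sampled here, a time at which the flight muscle of young birds gains mitochondria, myoglobin and enzymes of fat use while cell division and matrix deposition slow.

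The 6 libraries resembled each other closely. Across genes, which are not independent replicates, Spearman's correlation of mRNA levels was 0.961 to 0.978 within 28D, 0.960 to 0.973 within 14D and 0.950 to 0.963 between the stages. The 2 tables together summed to between 991186 and 992028 TPM in each of the 6 libraries, and TPM keeps no record of the number of reads, so the depth is unknown. Defining genes of skeletal muscle were at the top of the range in every library. ACTA1, skeletal alpha-actin, had 17477, 19082 and 17631 TPM at 28D, against 22226, 21537 and 27277 TPM at 14D. TNNT3, fast troponin T, had 5654, 5166 and 5230.0 TPM at 28D, against 6444, 5799 and 4879 TPM at 14D. MYLPF and ATP2A1, a fast light chain and the fast calcium pump, had no entry under these symbols and were not analysed here.

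A modest set of genes separated the stages. Of 11951 mRNA genes tested, 169 (1.41%) were called at an adjusted p below 0.05 in limma's moderated test on log2(TPM + 1), 65 of them higher at 28D (0.544%) and 104 lower at 28D (0.87%). Of these, 47 rose and 68 fell by at least 2-fold. The median log2 change over all genes tested was -0.07, and 1896 genes (15.9%) had an unadjusted p below 0.05. With every library scaled to a common median ratio, 111 genes were called higher and 102 lower at 28D, so 52.1% of the calls were rises in place of 38.5%. None of the 169 called genes overlapped between the 28D and 14D libraries, while 2363 of all genes tested (19.8%) did not overlap, 807 of them higher at 28D (6.75%) and 1556 lower at 28D (13%).

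The number of calls depended on which libraries informed the spread. A fit to the 28D and 14D libraries without the 1D libraries called 21 genes, 19 of them among the 169, and the spread within a stage, as the median SD of log2 levels, was 0.171 in the 1D libraries, 0.232 in the 14D libraries and 0.213 in the 28D libraries. Leaving out 28D replicate 3 left 27 calls, leaving out 14D replicate 3 left 39, and leaving out 28D replicate 1 left 66. Of the 169 genes, 19 were called in each of the 6 fits that left out 1 library, and 15 of these were also called without the 1D libraries. The 19 called in both fits were LOC102083921, LOC102095780, LRRC30, CAMK1D, SLC4A5, MTHFD2, TCF15 and SYNPO among rises, and FST, COL3A1, VIM, CPZ, COL1A1, COL4A5, LOC102085795, SEC14L5, GATM and 2 entries without a symbol among falls. Every other mRNA call was lost without the 1D libraries. Where a call below is said to be lost or held, this refers to the 6 fits that leave out 1 library, unless the 1D libraries are named.

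**Figure D1:**
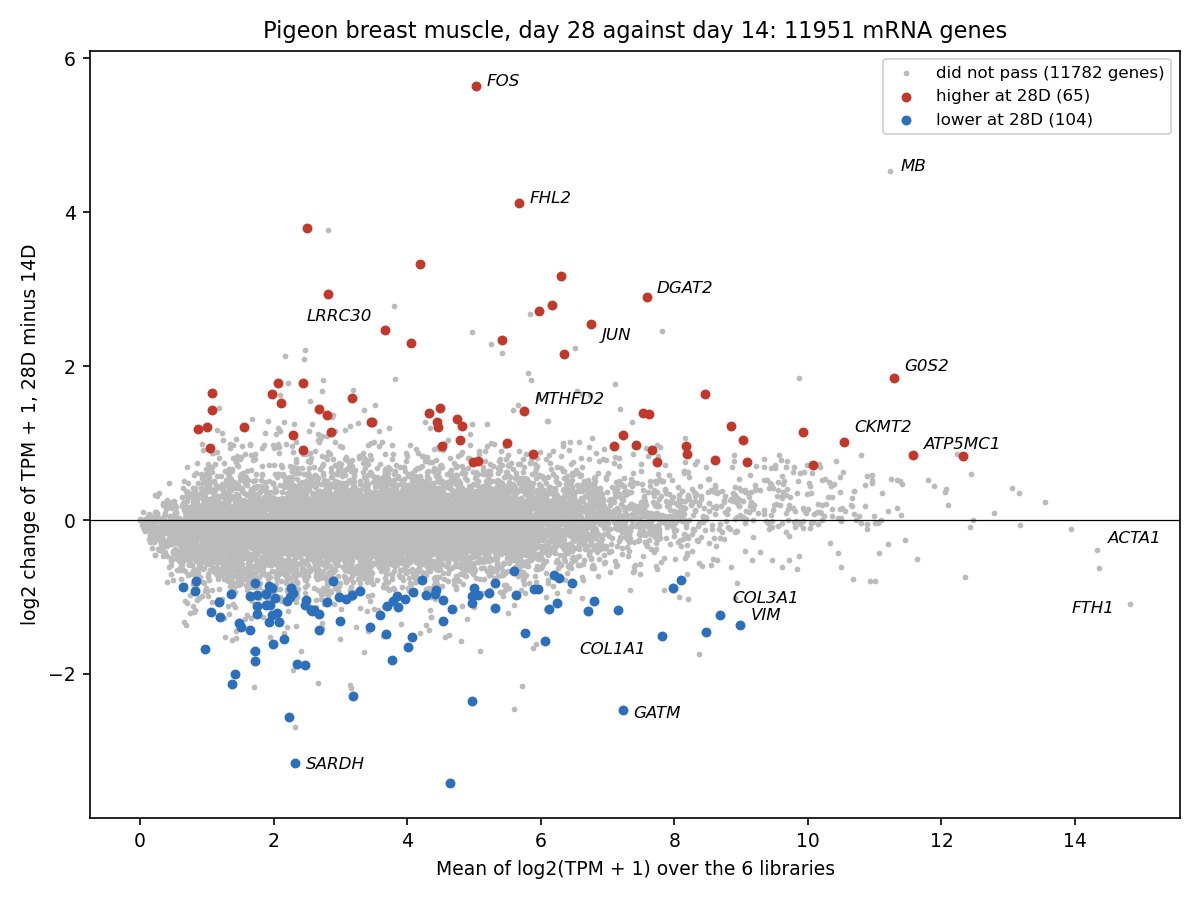
Log2 change between 28D and 14D (vertical axis) against mean log2(TPM + 1) of the 6 libraries (horizontal axis) for the 11951 mRNA genes tested. Each point is a gene, and coloured points are the 65 genes called higher and the 104 called lower at 28D. The cloud of genes lies close to 0, with a median of -0.07.

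The genes whose calls held in every one of these fits form a short, mixed set. The most extreme was LOC102083921, a protein-coding gene without an assigned name. It had 18.9, 22.5 and 19.0 TPM at 28D, against 0.377, 0.923 and 0.344 TPM at 14D, a log2 change of 3.79 ± 0.19 (SE; limma, adjusted p = 1.66e-05). Its neighbour in the reference annotation, LOC102095780, had 17.2, 20.1 and 18.5 TPM at 28D, against 0.641, 2.12 and 2.25 TPM at 14D (log2 change 2.94 ± 0.28, SE; limma, adjusted p = 0.00164). In both genes every 28D library was far above every 14D library, and the annotated spans of the pair do not overlap.

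LRRC30, which encodes a leucine-rich repeat protein, rose with little scatter. Its levels were 26.5, 30.5 and 30.4 TPM at 28D, against 4.43, 3.39 and 5.62 TPM at 14D (log2 change 2.48 ± 0.19, SE; limma, adjusted p = 0.0007). TCF15, a transcription factor that in muscle marks endothelial cells of capillaries in mice, had 306, 279.7 and 309 TPM at 28D, against 108, 129 and 104 TPM at 14D (log2 change 1.39 ± 0.18, SE; limma, adjusted p = 0.0111). SYNPO, the actin-associated protein synaptopodin, had 29.6, 30.6 and 34.8 TPM at 28D, against 10.3, 13.2 and 11.1 TPM at 14D (log2 change 1.38 ± 0.16, SE; limma, adjusted p = 0.00814). For all 3 genes the lowest 28D library was more than 2-fold above the highest 14D library. On the falling side, SEC14L5, of a family of lipid-binding proteins, had 5.10, 7.06 and 6.81 TPM at 28D, against 24.8, 25.4 and 23.7 TPM at 14D (log2 change -1.82 ± 0.15, SE; limma, adjusted p = 0.000765). CPLX2, the synaptic protein complexin, had 0.935, 0.444 and 1.24 TPM at 28D, against 3.77, 4.91 and 6.54 TPM at 14D (log2 change -1.70 ± 0.22, SE; limma, adjusted p = 0.0111), although its call was lost without the 1D libraries (adjusted p = 0.0563).

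**Figure D2:**
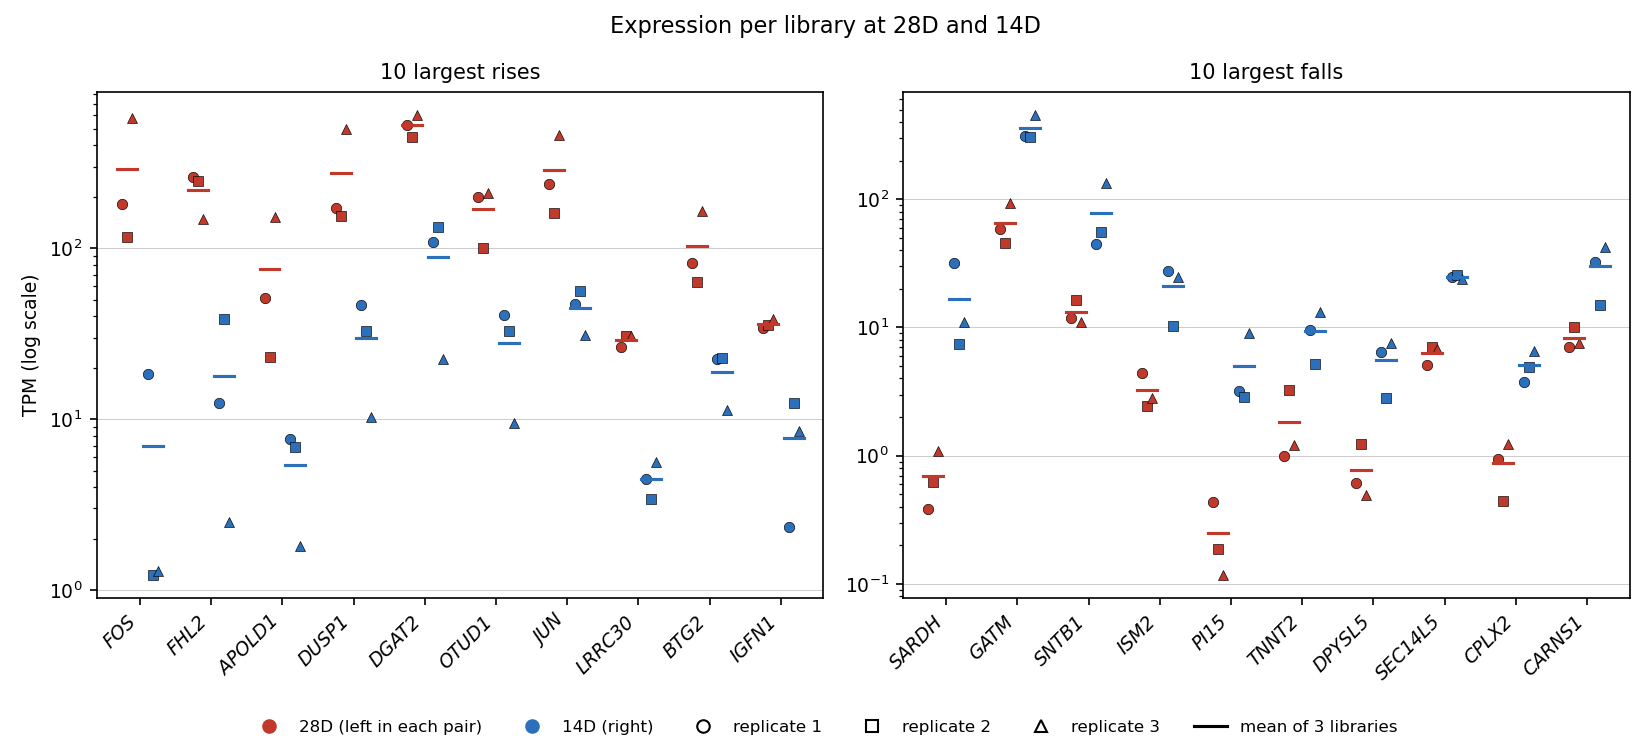
TPM on a log axis for the called, named genes that moved most, 10 upward and 10 downward, each with a mean of at least 5 TPM in 1 of the stages. Each point is 1 library, coloured by stage and shaped by replicate number, and the bar is the mean of 3 libraries. Lack of overlap between the stages was a condition of the choice. The 14D points spread more widely than the 28D points for FHL2 and SARDH.

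Genes of oxygen and fat use were among the largest differences in level. MB, myoglobin, which stores oxygen in muscle fibres, had 12898, 10763 and 11242 TPM at 28D, against 307, 4042 and 100.3 TPM at 14D. The 28D libraries were alike and all above the 14D libraries, which differed among themselves more than 10-fold. The log2 change of 4.53 ± 1.00 (SE) missed the threshold (limma, adjusted p = 0.059). Without 14D replicate 2, the highest of its stage, the log2 change was 6.04 and the adjusted p 0.00065, and without any other single library the adjusted p was 0.102 to 0.149.

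Synthesis, storage and breakdown of triacylglycerol were represented by 19 genes. Of these, 3 rose, against 0.544% of all genes tested, and none fell, with a median log2 change of 0.30 (0.14 without 14D replicate 3). G0S2, an inhibitor of the lipase ATGL, had 4859, 3592 and 6177 TPM at 28D, against 865, 1192 and 2229 TPM at 14D (log2 change 1.85 ± 0.33, SE; limma, adjusted p = 0.028). DGAT2, which adds the last fatty acid to diacylglycerol, had 529, 449 and 601 TPM at 28D, against 109, 133 and 22.6 TPM at 14D (log2 change 2.90 ± 0.60, SE; limma, adjusted p = 0.0454). MOGAT1, which makes diacylglycerol from monoacylglycerol, was expressed at a far lower level, 3.80, 7.58 and 10.3 TPM at 28D, against 0.959, 2.24 and 0.802 TPM at 14D (limma, adjusted p = 0.0499). Stages did not overlap for any of the 3. The summed level of the 19 genes was 5298 to 8145 TPM at 28D, against 2227 to 3087 TPM at 14D. G0S2 alone gave 3592 to 6177 TPM of it at 28D and 865 to 2229 TPM at 14D. None of the 3 calls held when 28D replicate 3 was left out, and 1 held when 28D replicate 1, 28D replicate 2 or 14D replicate 3 was; none held without the 1D libraries. Adipocyte markers, of which 7 were tested, had no call and a median log2 change of 0.50 (0.13 without 14D replicate 3), and their summed level was 345 to 474 TPM at 28D, against 261 to 451 TPM at 14D, so those ranges overlapped. ADIPOQ, the fat cell hormone adiponectin, had 199, 163 and 167 TPM at 28D, against 119, 94.5 and 102 TPM at 14D (limma, adjusted p = 0.0728). The part of adipocyte RNA in the triacylglycerol genes was not tested.

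Genes of fatty acid uptake and oxidation gave no call among 42 tested, against 1.41% of all genes tested. The median log2 change was 0.20 and 32 of the 42 were above 0, against 4807 of all 11951 genes tested. Within 14D, replicate 3 was the lowest library for 35 of the 42, against 4978 of all 11951 genes tested. Without 14D replicate 3 the median was 0.063 and 25 were above 0, and without 14D replicate 2 the median was 0.30. FABP3, the fatty acid carrier of oxidative muscle, had 3162, 1166 and 1512 TPM at 28D, against 1549, 369 and 210.3 TPM at 14D. The stages overlapped through 14D replicate 1 (limma, adjusted p = 0.178), without which the adjusted p was 0.0189. LPL, CPT1A and PDK4, which release fatty acids from lipoproteins, pass them into mitochondria and restrain pyruvate oxidation, did not pass the test (limma, adjusted p = 0.469, 0.396 and 0.639).

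Subunits of the respiratory chain leaned upward by small amounts. Of 78 nuclear-encoded subunits listed, 40 had an mRNA entry under their symbol, and none of 13 mitochondrially encoded transcripts had one. Of the 40 nuclear-encoded subunits tested, 3 rose, against 0.544% of all genes tested, and none fell. The log2 change was above 0 in 38, against 4807 of all 11951 genes tested, and the median was 0.45 against -0.07 over all genes. In 27 of the 40, the 28D libraries lay above all 14D libraries without overlap, against 6.75% of all genes tested. Their summed level was 56916 to 63118 TPM at 28D, against 37313 to 45573 TPM at 14D. ATP5MC1, a ring subunit of ATP synthase, had 3988, 4254 and 4008 TPM at 28D, against 2544, 2398 and 1926 TPM at 14D (log2 change 0.84 ± 0.15, SE; limma, adjusted p = 0.0255). NDUFB10 of complex I had 1405, 1388 and 1362 TPM at 28D, against 917, 814 and 804 TPM at 14D (log2 change 0.71 ± 0.12, SE; limma, adjusted p = 0.0247). NDUFA1, also of complex I, had 1441, 1248 and 1667 TPM at 28D, against 759.5, 634 and 574 TPM at 14D (log2 change 1.15 ± 0.23, SE; limma, adjusted p = 0.0439). Each rise was under 2.5-fold and the stages stood apart. No subunit was called without the 1D libraries, under quantile normalization, or after dropping 14D replicate 3 or any one 28D library. Quantile normalization lowered the median to 0.25. Replicate 3 was the lowest 14D library for 33 of the 40 subunits, against 4978 of all 11951 genes tested. Without 14D replicate 3 the median was 0.34.

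The lists of the tricarboxylic acid cycle, glycolysis, mitochondrial carriers and mitochondrial ribosome gave 1 or 2 calls each, against 1.41% of all genes tested. CKMT2, the creatine kinase of muscle mitochondria, had 2121, 2289.7 and 1939.7 TPM at 28D, against 1201, 1211 and 790.3 TPM at 14D (log2 change 1.01 ± 0.18, SE; limma, adjusted p = 0.0253). GOT1, which takes part in the malate-aspartate shuttle, was the 1 called gene of 30 in the list of the tricarboxylic acid cycle and pyruvate entry, whose median was 0.35 (0.17 without 14D replicate 3), with 631, 917 and 728 TPM at 28D, against 411, 446 and 261 TPM at 14D (limma, adjusted p = 0.0436). SLC16A1, a lactate and pyruvate transporter, was the 1 called gene of 36 in glycolysis and glycogen use, with 218, 200.03 and 155 TPM at 28D, against 101, 103 and 86.3 TPM at 14D (limma, adjusted p = 0.0221). All 3 genes rose in every 28D library relative to every 14D library. BSG, the partner that carries this transporter to the cell surface, also rose, with 798, 738 and 604 TPM at 28D, against 413, 482 and 370.1 TPM at 14D (limma, adjusted p = 0.0411); it was named after its values were seen. The glycolysis list otherwise leaned the other way, with a median of -0.20 and 27 of 36 genes below 0. The 9 above 0 stand against 4807 above 0 of all 11951 genes tested. With every library scaled to a common median ratio, the list median was -0.15 and 13 genes were above 0, against 5653 of all genes tested. The list median was -0.095 without 14D replicate 2 and -0.12 without 28D replicate 1. GAPDH, a glycolytic enzyme, had 13422, 22502 and 15717 TPM at 28D, against 25255, 18988 and 36649.7 TPM at 14D, with overlapping stages (limma, adjusted p = 0.274). Of 60 mitochondrial ribosomal proteins, MRPL16 and MRPL33 rose (log2 changes 0.90 and 0.79; limma, adjusted p = 0.0142 and 0.0292), with a median of 0.24 over the list (0.16 without 14D replicate 3); the MRPL16 call was lost without 14D replicate 3 and that of MRPL33 without 28D replicate 1, 28D replicate 3, 14D replicate 1 or 14D replicate 3. Of 48 mitochondrial carriers and import factors, VDAC1, an outer-membrane channel, fell at a low level, with 8.83, 8.36 and 3.98 TPM at 28D, against 30.6, 17.8 and 15.9 TPM at 14D (limma, adjusted p = 0.0439). The calls of CKMT2 and GOT1 were lost without any one 28D library and without 14D replicate 3, that of SLC16A1 without 28D replicate 1 or 14D replicate 3, that of BSG without any one library but 14D replicate 2, and that of VDAC1 without any one library. PPARGC1A, a coactivator of mitochondrial genes, had 24.8, 16.8 and 27.1 TPM at 28D, against 43.6, 32.1 and 25.8 TPM at 14D, with overlapping stages (limma, adjusted p = 0.326).

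Iron and oxygen genes other than MB were mixed. FTH1, the heavy chain of the iron store ferritin, had the largest drop in mean TPM among mRNA genes with an assigned name. It had 13961, 28127 and 19974 TPM at 28D, against 34162, 50742 and 44098 TPM at 14D. The stages did not overlap, the log2 change was -1.09 ± 0.26 (SE), and the adjusted p was 0.0702 (limma), or 0.0476 without 28D replicate 2. NGB, neuroglobin, was the 1 called gene of 22 in the list, against 1.41% of all genes tested. It fell, with 0.906, 0.294 and 0.306 TPM at 28D, against 3.60, 2.29 and 1.96 TPM at 14D (limma, adjusted p = 0.0248). The NGB call was lost without 28D replicate 2, 28D replicate 3 or 14D replicate 3.

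Genes of one-carbon and creatine metabolism changed in both directions. Of 31 genes on the list of creatine, purine and one-carbon enzymes, MTHFD2 and CKMT2 rose, against 0.544% of all genes tested. GATM, CARNS1 and MTHFD1 fell, against 0.87% of all genes tested. The MTHFD1 call (limma, adjusted p = 0.0393) was lost without any one library (adjusted p = 0.0539 to 0.122). The median of the list was -0.12 (-0.031 without 28D replicate 2 and -0.075 without 14D replicate 1). SARDH and AHCY, described here with them, are not on that list. MTHFD2, a mitochondrial folate enzyme, had 79.8, 93.9 and 88.2 TPM at 28D, against 35.2, 29.9 and 30.9 TPM at 14D (log2 change 1.42 ± 0.13, SE; limma, adjusted p = 0.00164). Its annotated span overlaps that of SLC4A5, a bicarbonate transporter, which had 10.98, 8.52 and 9.50 TPM at 28D, against 3.65, 2.63 and 2.49 TPM at 14D (limma, adjusted p = 0.0111). Overlap of their exons was not examined and strand use in the counting is unknown, so sharing of reads by the pair was not tested. SARDH, which oxidizes sarcosine in mitochondria, had 0.385, 0.624 and 1.08 TPM at 28D, against 32.0, 7.45 and 10.96 TPM at 14D (log2 change -3.16 ± 0.45, SE; limma, adjusted p = 0.0145). GATM, which makes the precursor of creatine, had 58.0, 45.5 and 93.4 TPM at 28D, against 313, 305 and 454 TPM at 14D (log2 change -2.47 ± 0.45, SE; limma, adjusted p = 0.03). AHCY, which removes the by-product of methylation reactions, had 30.3, 41.4 and 24.9 TPM at 28D, against 104, 69.0 and 99.6 TPM at 14D (log2 change -1.47 ± 0.21, SE; limma, adjusted p = 0.0145). The falls of SARDH and GATM exceeded 5-fold in the ratio of means, and no 28D library reached a 14D library in any of the 3. The SARDH and MTHFD2 calls held without any single library, although that of SARDH was lost without the 1D libraries (adjusted p = 0.0609). The call of AHCY was lost without 28D replicate 3 or 14D replicate 3, and that of GATM held without 14D replicate 1 (adjusted p = 0.0437) and without the 1D libraries (adjusted p = 0.0292), but in none of the other 5 fits (adjusted p = 0.0508 to 0.102). CARNS1, which makes the muscle dipeptide carnosine, fell to 7.07, 10.02 and 7.57 TPM at 28D, against 32.4, 15.0 and 42.5 TPM at 14D (limma, adjusted p = 0.035; lost without 28D replicate 1, 28D replicate 3, 14D replicate 1 or 14D replicate 3).

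**Figure D3:**
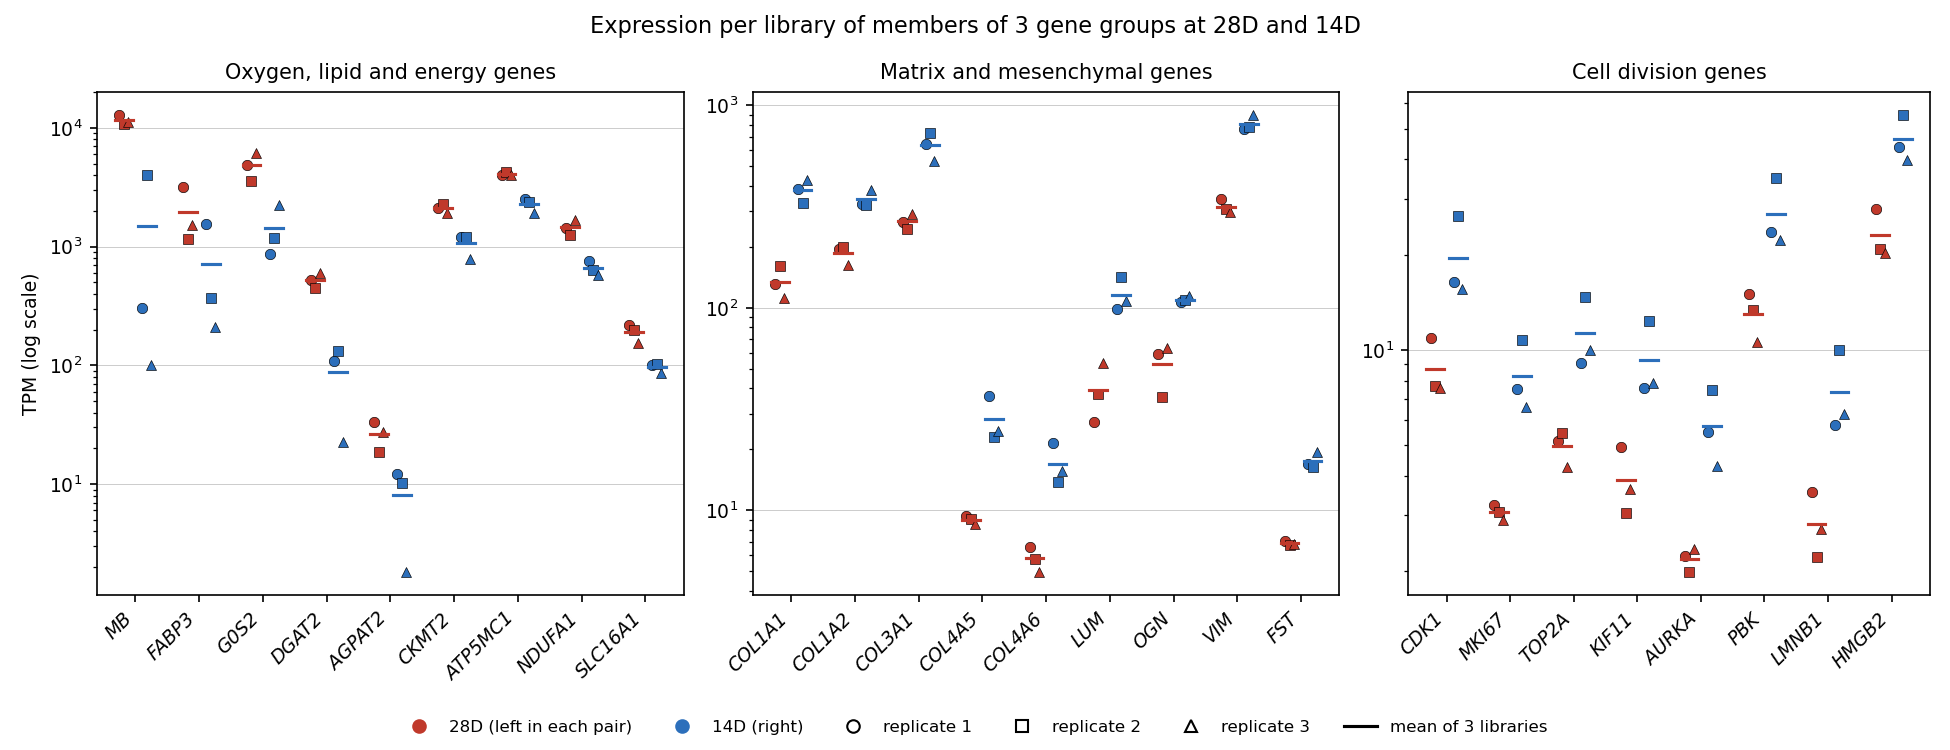
TPM on a log axis in each 28D and 14D library for genes of oxygen, lipid and energy use (left), matrix and mesenchymal genes with FST (middle) and cell division (right). Each point is 1 library, its shape gives the replicate number, and the bar is the mean of 3 libraries. MB shows the widest 14D spread (100.3 to 4042 TPM), and the cell division genes show 14D replicate 2 above the other 14D libraries.

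Calls on the list of collagens and other matrix genes were all falls. Of 76 genes tested, 10 fell, against 0.87% of all genes tested, and none rose, the median log2 change was -0.33, and in 29 the 28D libraries lay below all 14D libraries, against 13% of all genes tested. The log2 change was above 0 in 22 of the 76, against 4807 of all 11951 genes tested. Without overlap, 6 were higher at 28D, against 6.75% of all genes tested. The summed level of the list was 7045 to 7653 TPM at 28D, against 7663, 10033 and 7810 TPM in 14D replicates 1, 2 and 3. COL1A1, a chain of the main fibril collagen, had 131, 160.1 and 112 TPM at 28D, against 388, 329 and 427 TPM at 14D (log2 change -1.50 ± 0.18, SE; limma, adjusted p = 0.00814). COL3A1, the fibril collagen of soft tissue, had 265, 245 and 291 TPM at 28D, against 644, 729.5 and 531 TPM at 14D (log2 change -1.24 ± 0.16, SE; limma, adjusted p = 0.0111). COL1A2, the partner chain of COL1A1, had 196, 200.3 and 162 TPM at 28D, against 327, 323 and 379.9 TPM at 14D (log2 change -0.88 ± 0.15, SE; limma, adjusted p = 0.025). The 3 fibril genes fell 1.85-fold to 2.83-fold in the ratio of means, with clear gaps between the stages.

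Basement membrane and small matrix proteoglycans followed. COL4A5 had 9.38, 9.10 and 8.52 TPM at 28D, against 36.7, 23.1 and 24.6 TPM at 14D (log2 change -1.51 ± 0.18, SE; limma, adjusted p = 0.00828). COL4A6, its neighbour in the reference annotation, also a basement membrane chain and not on the list, had 6.62, 5.77 and 4.98 TPM at 28D, against 21.4, 13.8 and 15.6 TPM at 14D (log2 change -1.39 ± 0.20, SE; limma, adjusted p = 0.0142). Both genes were lowest in 28D replicate 3 and highest in 14D replicate 1. LUM, the proteoglycan lumican, had 27.2, 37.6 and 53.5 TPM at 28D, against 99.1, 142 and 108 TPM at 14D (log2 change -1.57 ± 0.24, SE; limma, adjusted p = 0.0158). OGN, osteoglycin, had 59.2, 36.2 and 63.3 TPM at 28D, against 106, 109 and 114 TPM at 14D (log2 change -1.08 ± 0.19, SE; limma, adjusted p = 0.0274). At lower levels, COL14A1 and FBLN1 of the list fell with log2 changes of -1.10 and -0.88, and outside the list COL20A1 and CPZ, a collagen and a secreted carboxypeptidase, fell with log2 changes of -1.61 and -1.39. None of these had a 28D library above 3 TPM. LAMB3, a laminin chain of epithelial basement membranes that is not on the list and was named after its values were seen, rose, with 1.76, 1.89 and 1.94 TPM at 28D, against 0.234, 0.420 and 0.900 TPM at 14D (limma, adjusted p = 0.0486; lost without any one library). The calls of COL1A1, COL3A1, COL4A5 and CPZ held without any single library. Those of COL1A2 and OGN held in 3 of the 6 fits that left out 1 library. The COL14A1 call (limma, adjusted p = 0.0393) held in 2 of these fits, and the FBLN1 call (limma, adjusted p = 0.0411) in none. Over the list, 3 calls were left without the 1D libraries or without 14D replicate 3, and 4 without 28D replicate 1 or without 28D replicate 3.

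Among the markers of fibroblasts, the cells that make this matrix, only matrix genes were called. Of 13 tested, 5 fell, against 0.87% of all genes tested, and none rose, their median was -0.52, none was at 0 in any library, and their summed level was 1231 to 1407 TPM at 28D, against 2109 to 2257 TPM at 14D. The 5 called genes (COL1A1, COL1A2, COL3A1, LUM and FBLN1) all stand on the matrix list too. DCN, the proteoglycan decorin, is the sixth marker on the matrix list and did not pass the test, with 246, 196 and 285 TPM at 28D, against 357, 370 and 293 TPM at 14D, without overlap (limma, adjusted p = 0.177). The 7 markers not on the matrix list gave no call and a median of -0.08, and their summed level was 389 to 502 TPM at 28D, against 289 to 391 TPM at 14D. PDGFRA, the receptor by which fibroblasts of muscle are commonly sorted, had 11.2, 12.4 and 12.3 TPM at 28D, against 17.3, 17.1 and 19.5 TPM at 14D, without overlap (limma, adjusted p = 0.0935). CLEC3B, tetranectin, made up most of the summed level of these 7 markers in every library. It leaned the other way with 393, 271 and 408 TPM at 28D, against 199, 215 and 273 TPM at 14D, overlapping between stages (limma, adjusted p = 0.144). In bulk tissue, fewer cells of a type and less RNA per cell cannot be told apart, and the part of fibroblast number in the matrix genes was not tested. Without the 1D libraries or without 14D replicate 3, 2 of the 5 calls were left. The FBLN1 call was lost without any one library. VIM, on neither list, encodes the intermediate filament vimentin of fibroblasts and immature fibres and had 345, 307 and 296 TPM at 28D, against 759, 779.7 and 897 TPM at 14D (log2 change -1.36 ± 0.22, SE; limma, adjusted p = 0.0201). All 28D libraries lay below 50% of the lowest 14D library, and the call was lost without 28D replicate 1, 28D replicate 3 or 14D replicate 3 (adjusted p up to 0.0754).

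Calls on the cell cycle list were all falls as well. Of 63 genes tested, 10 fell, against 0.87% of all genes tested, and none rose, with a median of -0.73. The log2 change was below 0 in 62 and above 0 in 1, against 4807 above 0 of all 11951 genes tested. In 45 of the 63 every 28D library lay below every 14D library, against 13% of all genes tested. MKI67, the proliferation marker Ki-67, had 3.24, 3.07 and 2.90 TPM at 28D, against 7.55, 10.7 and 6.58 TPM at 14D (log2 change -1.17 ± 0.18, SE; limma, adjusted p = 0.0166). CDK1, the kinase that starts mitosis, had 10.9, 7.71 and 7.56 TPM at 28D, against 16.4, 26.4 and 15.5 TPM at 14D (log2 change -1.05 ± 0.21, SE; limma, adjusted p = 0.0439). TOP2A, which untangles DNA before division, had 5.14, 5.45 and 4.27 TPM at 28D, against 9.07, 14.7 and 9.998 TPM at 14D (log2 change -1.02 ± 0.19, SE; limma, adjusted p = 0.03). These genes fell 2.23-fold to 2.70-fold in the ratio of means, and 14D replicate 2 was the highest library in each. KIF11 and AURKA, a spindle motor and a spindle kinase, fell as well (log2 change -1.06 each; limma, adjusted p = 0.0393 and 0.0248).

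The summed level of the 63 genes was 391 to 480 TPM at 28D, against 571 to 888 TPM at 14D. Within 14D, replicate 2 had the highest value for 63 of the 63, against 7111 of all 11951 genes tested. Without that library the median was -0.53 and 3 genes were called. The calls numbered 0 without 28D replicate 3, 2 without 14D replicate 3, 3 without 28D replicate 1 or 28D replicate 2, and 0 without the 1D libraries. Of the genes named above, the MKI67 call was lost without 28D replicate 3 (adjusted p = 0.0631) and without the 1D libraries (adjusted p = 0.081). The other named calls held less often. TOP2A and AURKA were each called in 3 of the 6 fits that left out 1 library, and CDK1 and KIF11 each in 1. Outside the list, the chromatin and nuclear lamina genes HMGB2 and LMNB1 fell too, with HMGB2 at 27.9, 20.8 and 20.3 TPM at 28D, against 43.6, 55.2 and 39.9 TPM at 14D (log2 change -0.98 ± 0.18, SE; limma, adjusted p = 0.0292), and LMNB1 at a log2 change of -1.11 (limma, adjusted p = 0.0369); both were named after their values were seen. The HMGB2 call held only without 28D replicate 1 or 14D replicate 1, and that of LMNB1 only without 14D replicate 1.

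Growth factor genes gave calls in both directions. Of 53 genes that signal through myostatin or insulin-like growth factors or restrain them, 4 fell and 1 rose, against 0.87% and 0.544% of all genes tested, with a median of -0.18. FST, follistatin, which binds and blocks myostatin and activin, had 7.05, 6.75 and 6.83 TPM at 28D, against 16.9, 16.4 and 19.5 TPM at 14D (log2 change -1.24 ± 0.14, SE; limma, adjusted p = 0.00814). The 3 libraries of 28D differed by less than 0.5 TPM, and the call held without any single library and without the 1D libraries. MSTN, myostatin, which restrains muscle growth, had 42.9, 39.5 and 36.0 TPM at 28D, against 55.4, 65.1 and 97.0 TPM at 14D, without overlap but with an adjusted p of 0.271 (limma). IGF1, the growth factor itself, had 1.83, 0.546 and 2.26 TPM at 28D, against 4.40, 3.65 and 3.66 TPM at 14D, also without overlap and with an adjusted p of 0.167 (limma).

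The fetal RNA-binding proteins IGF2BP2 and IGF2BP3, which stabilize growth transcripts, reached low levels. IGF2BP3 had 0.800, 0.970 and 0.542 TPM at 28D, against 4.82, 3.04 and 2.79 TPM at 14D (log2 change -1.34 ± 0.20, SE; limma, adjusted p = 0.0145). IGF2BP2 had 0.864, 1.94 and 0.952 TPM at 28D, against 5.78, 3.54 and 3.36 TPM at 14D (log2 change -1.22 ± 0.23, SE; limma, adjusted p = 0.0367). IGFBP2, a secreted binding protein of the growth factors, had 4.45, 4.85 and 4.66 TPM at 28D, against 8.65, 9.37 and 8.47 TPM at 14D (log2 change -0.80 ± 0.13, SE; limma, adjusted p = 0.0201). The stages stood apart in all 3. The IGF2BP3 call was lost without 28D replicate 3, that of IGFBP2 without 28D replicate 1, 28D replicate 3 or 14D replicate 3, and that of IGF2BP2 in those fits and without 14D replicate 1. DDIT4, an inhibitor of the growth kinase mTORC1, was the gene of this list that rose, with 184, 109 and 248 TPM at 28D, against 75.7, 32.6 and 21.0 TPM at 14D (log2 change 2.16 ± 0.42, SE; limma, adjusted p = 0.037). Its call held only without 14D replicate 1 or without 28D replicate 2.

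Immediate-early genes, which respond within minutes to stretch, contraction or hormones, included FOS, the called mRNA gene with the largest rise. Of 27 tested, 5 rose and 1 fell, against 0.544% and 0.87% of all genes tested. The log2 change was above 0 in 22, against 4807 of all 11951 genes tested, and the median was 0.81. FOS, a subunit of the transcription factor AP-1, had 181, 116 and 577 TPM at 28D, against 18.3, 1.23 and 1.30 TPM at 14D, a 42.1-fold ratio of means (log2 change 5.64 ± 0.81, SE; limma, adjusted p = 0.0145). JUN, its partner, had 238, 161 and 461 TPM at 28D, against 47.0, 56.4 and 31.2 TPM at 14D (log2 change 2.55 ± 0.34, SE; limma, adjusted p = 0.0111). DUSP1, a phosphatase that switches off MAP kinases, had 171, 154 and 498 TPM at 28D, against 46.5, 32.7 and 10.3 TPM at 14D (log2 change 3.18 ± 0.53, SE; limma, adjusted p = 0.0209). In all 3 genes 28D replicate 3 was the highest library.

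JUND and BTG2 also rose, with log2 changes of 1.64 and 2.34 (limma, adjusted p = 0.0179 and 0.0325). KLF5 fell, with 1.65, 1.31 and 2.11 TPM at 28D, against 4.88, 5.39 and 6.94 TPM at 14D (log2 change -1.32 ± 0.18, SE; limma, adjusted p = 0.0127). EGR1, a further early gene, had 90.0, 33.2 and 242 TPM at 28D, against 36.5, 19.4 and 9.98 TPM at 14D, with overlapping stages (limma, adjusted p = 0.116; 0.0373 without 28D replicate 2). The summed level of the 27 genes was 2036 to 4706 TPM at 28D, against 872 to 1492 TPM at 14D. Within 28D, replicate 3 was highest for 21 of the 27, against 3651 of all 11951 genes tested. Within 14D, replicate 3 was lowest for 19 of the 27, against 4978 of all 11951 genes tested. With 28D replicate 3 or 14D replicate 3 left out, 1 of the genes was called higher, and with 28D replicate 1 left out, 3 were. Leaving out 28D replicate 2 gave 9 such calls, leaving out 14D replicate 1 gave 8, and no gene was called with the 1D libraries left out. The JUN and KLF5 calls held without any single library, and those of FOS and DUSP1 were lost without 28D replicate 3 or 14D replicate 3. The labels give no time from handling to freezing, and its part in these levels was not tested.

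FHL2, a scaffold protein of the sarcomere and nucleus, had 261, 247 and 149 TPM at 28D, against 12.4, 38.4 and 2.49 TPM at 14D (log2 change 4.12 ± 0.66, SE; limma, adjusted p = 0.0196). FHL2 in its lowest 28D library was nearly 4-fold above its highest 14D library, and the call was lost without 28D replicate 1 or 28D replicate 3 (adjusted p up to 0.0626). IGFN1, a Z-disc protein of skeletal muscle, had 33.9, 35.6 and 38.4 TPM at 28D, against 2.35, 12.4 and 8.48 TPM at 14D (log2 change 2.30 ± 0.40, SE; limma, adjusted p = 0.0261; lost without any one 28D library or 14D replicate 3).

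Further large changes lay outside the lists. APOLD1, an early-response gene of endothelial cells, had 51.0, 23.1 and 152 TPM at 28D, against 7.60, 6.83 and 1.82 TPM at 14D (log2 change 3.33 ± 0.61, SE; limma, adjusted p = 0.03). OTUD1, a deubiquitinating enzyme, had 198, 99.6 and 209 TPM at 28D, against 40.9, 32.9 and 9.52 TPM at 14D (log2 change 2.71 ± 0.52, SE; limma, adjusted p = 0.035). Both were lowest at 14D in replicate 3, and both calls were lost without 28D replicate 1, 28D replicate 3 or 14D replicate 3. KCNC1, a voltage-gated potassium channel named after its values were seen, had 4.67, 6.16 and 8.57 TPM at 28D, against 1.37, 1.67 and 1.58 TPM at 14D (log2 change 1.52 ± 0.22, SE; limma, adjusted p = 0.0145; lost without 28D replicate 3 or 14D replicate 3). CAMK1D, a calcium-activated kinase, had 42.3, 29.0 and 39.2 TPM at 28D, against 13.7, 12.02 and 12.4 TPM at 14D (log2 change 1.45 ± 0.21, SE; limma, adjusted p = 0.0145; lost in the same fits). The 14D libraries of these channel and kinase genes lay close together, below every 28D library. PI15, a secreted peptidase inhibitor, fell to 0.438, 0.188 and 0.118 TPM at 28D, against 3.17, 2.85 and 9.08 TPM at 14D (log2 change -2.14 ± 0.32, SE; limma, adjusted p = 0.0158; lost without 28D replicate 3). XIRP1, an actin-binding protein of muscle attachment sites named after its values were seen, fell to 14.7, 14.7 and 16.3 TPM at 28D, against 37.8, 28.2 and 31.4 TPM at 14D (log2 change -1.04 ± 0.19, SE; limma, adjusted p = 0.03; called in 1 of the 6 fits, that without 14D replicate 2).

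Each list of contractile genes gave 1 call, a fall, against 0.87% of all genes tested. Of 23 fast-fibre sarcomere genes tested, 1 fell and none rose, with a median of -0.29. The gene called was KLHL40, a stabilizer of thin filament proteins, with 37.1, 31.8 and 33.9 TPM at 28D, against 94.7, 57.2 and 58.9 TPM at 14D (limma, adjusted p = 0.0484; called in 1 of the 6 fits without 1 library, that without 14D replicate 2). Of 20 slow, cardiac and embryonic sarcomere genes, TNNT2, the troponin T of embryonic and heart muscle, fell to 1.00, 3.23 and 1.22 TPM at 28D, against 9.55, 5.19 and 13.2 TPM at 14D (log2 change -1.88 ± 0.34, SE; limma, adjusted p = 0.0281; lost without 28D replicate 1, 28D replicate 3, 14D replicate 1 or 14D replicate 3). TNNC1, the slow and cardiac troponin C, had 5917, 6920.1 and 6646 TPM at 28D, against 2166, 4590.2 and 4641 TPM at 14D, without overlap and with an adjusted p of 0.288 (limma). TNNC2, its fast counterpart, had 4893, 3782 and 3619 TPM at 28D, against 8762, 5223 and 6765 TPM at 14D, again without overlap (limma, adjusted p = 0.114). The TPM order of the pair was therefore TNNC1 above TNNC2 in each 28D library and TNNC2 above TNNC1 in each 14D library, while neither gene passed the test. MYBPC1, the slow myosin-binding protein, had 0.435, 1.60 and 1.07 TPM at 28D, against 2.61, 7.61 and 65.9 TPM at 14D, where replicate 3 stood far above the others (limma, adjusted p = 0.134; 0.0337 without 14D replicate 1).

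Regulators of muscle formation leaned lower. Of 32 tested, 2 fell, against 0.87% of all genes tested, and none rose, with a median of -0.40. The log2 change was below 0 in 26 and above 0 in 6, against 4807 above 0 of all 11951 genes tested. MSC, musculin, a repressor of muscle genes, had 23.6, 17.1 and 21.3 TPM at 28D, against 46.6, 37.3 and 50.7 TPM at 14D (log2 change -1.08 ± 0.21, SE; limma, adjusted p = 0.0394). NCAM1, an adhesion protein of immature and denervated fibres, had 4.92, 4.42 and 4.51 TPM at 28D, against 12.2, 8.77 and 9.84 TPM at 14D (log2 change -0.996 ± 0.16, SE; limma, adjusted p = 0.0178). Neither gene overlapped between stages; the MSC call held only without 14D replicate 2, and that of NCAM1 was lost without 28D replicate 3 or 14D replicate 3. MYOD1 and MYOG, which commit and differentiate myoblasts, and PAX7, the marker of satellite cells, did not pass the test (limma, adjusted p = 0.492, 0.876 and 0.21), and PAX7 had 3.21, 3.46 and 2.83 TPM at 28D, against 6.29, 3.75 and 5.06 TPM at 14D. Of 14 genes of the neuromuscular junction, 1 fell, against 0.87% of all genes tested, and none rose. MUSK, the receptor kinase that assembles the synapse, fell to 2.09, 2.67 and 2.30 TPM at 28D, against 6.91, 4.70 and 5.66 TPM at 14D (limma, adjusted p = 0.0426). It was called in 1 of the 6 fits, that without 14D replicate 2. SNTB1, a syntrophin of the dystrophin complex that is not on the junction list, fell with a log2 change of -2.35 (limma, adjusted p = 0.0181). SNTB1 had 11.8, 16.5 and 10.9 TPM at 28D, against 44.99, 55.9 and 133 TPM at 14D, with all 28D libraries below the 14D libraries. The SNTB1 call was lost without 28D replicate 1 or 28D replicate 3.

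Calcium handling genes gave no call among 25 tested, against 1.41% of all genes tested, with a median of -0.32. CASQ2, a calcium buffer of the sarcoplasmic reticulum, had 567, 853 and 809 TPM at 28D, against 1035, 1159 and 1226 TPM at 14D (limma, adjusted p = 0.166). SLN, sarcolipin, an inhibitor of the calcium pump, had 1299.8, 1127 and 976 TPM at 28D, against 225, 1190.2 and 1262 TPM at 14D, with overlapping stages (limma, adjusted p = 0.588). Of 50 genes of atrophy and autophagy, 1 fell, against 0.87% of all genes tested, and none rose, with a median of 0.00. TRIM55, a ubiquitin ligase of the sarcomere, fell to 54.8, 59.6 and 61.2 TPM at 28D, against 106, 89.6 and 104 TPM at 14D (limma, adjusted p = 0.03). It was called in 1 of the 6 fits, that without 14D replicate 2. FBXO32, the atrophy ligase atrogin-1, had 89.1, 33.1 and 61.2 TPM at 28D, against 99.6, 24.8 and 43.5 TPM at 14D, with overlapping stages (limma, adjusted p = 0.87).

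**Figure D4:**
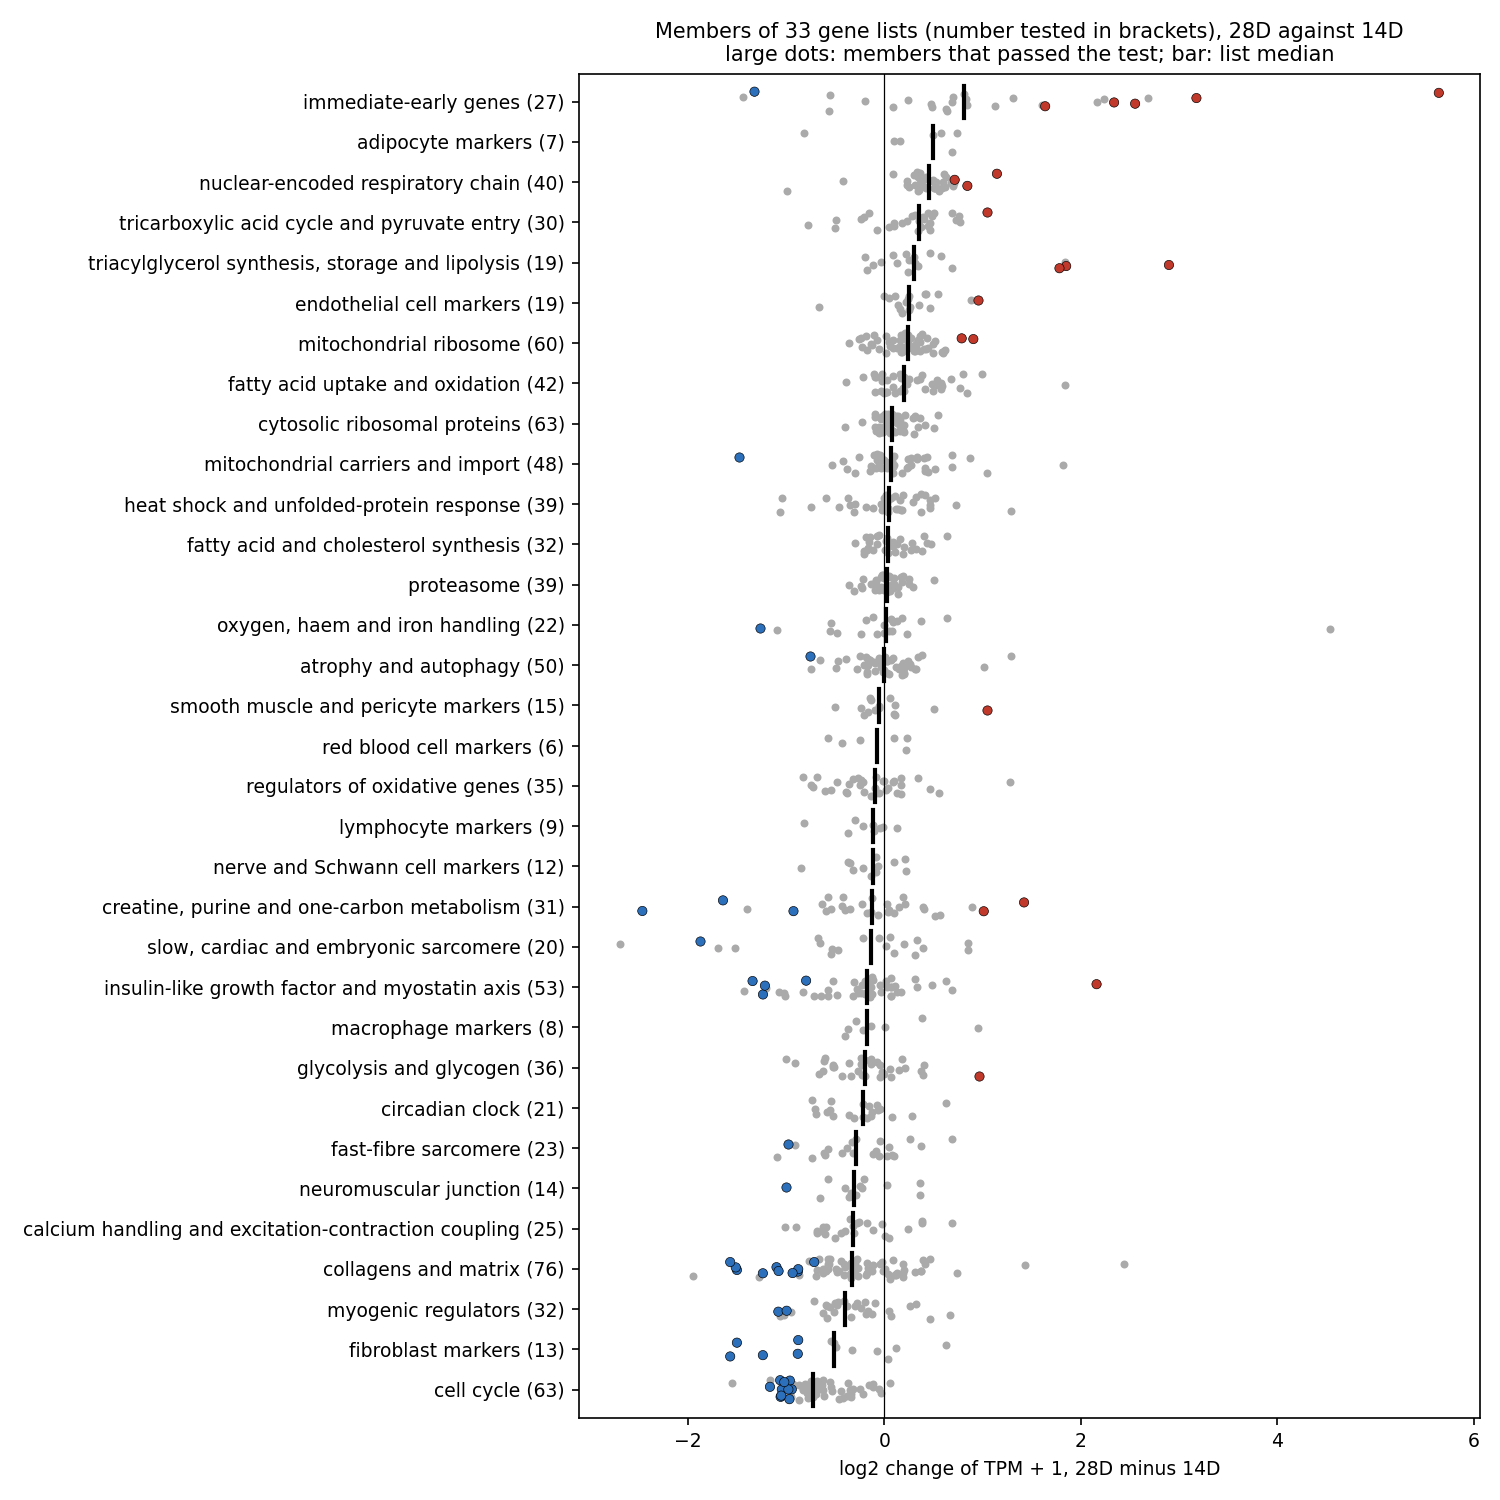
Log2 change between 28D and 14D for the tested members of 33 gene lists, 1 row per list, with the list median marked and called genes coloured. Immediate-early genes have the highest median (0.81) and cell cycle genes the lowest (-0.73), and the median over all genes tested is -0.07.

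Among markers of cell types other than muscle fibres and fibroblasts, 1 endothelial and 1 pericyte gene were called, both higher at 28D, against 0.544% of all genes tested. Of 19 endothelial markers, FLT1, a receptor of vascular growth factor, rose, with 31.4, 27.4 and 35.2 TPM at 28D, against 13.7, 19.6 and 14.0 TPM at 14D (log2 change 0.96 ± 0.18, SE; limma, adjusted p = 0.03), and the median of the list was 0.25. Leaving out 28D replicate 3 gave a median of 0.39, dropping 14D replicate 1 gave 0.047, and dropping 14D replicate 2 gave 0.52. Of 15 markers of smooth muscle and pericytes, KCNJ8, a potassium channel of pericytes, rose, with 40.3, 34.5 and 41.3 TPM at 28D, against 17.4, 18.6 and 18.7 TPM at 14D (log2 change 1.04 ± 0.14, SE; limma, adjusted p = 0.0127), and the median of the list was -0.06. Both genes stood apart between stages; the KCNJ8 call was lost without 28D replicate 3 and that of FLT1 without 28D replicate 1, 28D replicate 3, 14D replicate 1 or 14D replicate 3. The summed level of the endothelial list overlapped between stages, at 1280 to 1438 TPM at 28D, against 871 to 1652 TPM at 14D. None of the 8 macrophage, 9 lymphocyte, 6 red blood cell or 12 nerve and Schwann cell markers tested was called. The macrophage sum was 144 to 238 TPM at 28D, against 97.2 to 187 TPM at 14D. The median of the macrophage list was -0.18, and 3 of the 8 markers were above 0, against 4807 of all 11951 genes tested. The red blood cell sum was 336 to 554 TPM at 28D, against 284 to 691 TPM at 14D. CD79B of the lymphocyte list and HBAD of the red blood cell list were at 0 in at least 1 library.

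Lists of basic cell machinery, lipid synthesis, the clock and regulators of oxidative genes gave no calls, against 1.41% of all genes tested. No gene was called among 63 cytosolic ribosomal proteins (median 0.08), 39 proteasome subunits (median 0.03), 39 heat shock and unfolded-protein genes (median 0.04), 32 genes of fatty acid and cholesterol synthesis (median 0.04), 21 clock genes (median -0.21) and 35 regulators of oxidative genes (median -0.10). The ribosomal and proteasome medians turned to -0.14 and -0.01 under quantile normalization. Leaving out 1 library also turned each median that was above 0. Without 28D replicate 1 the medians were -0.055 (ribosomal), -0.016 (proteasome) and -0.026 (fatty acid and cholesterol synthesis). The heat shock median was -0.0099 without 28D replicate 3. Of the 169 called genes, 56 belonged to at least 1 list and 113 to none.

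The lncRNA table gave few calls. Of 8685 lncRNAs tested, 11 (0.127%) were called, 6 higher (0.0691%) and 5 lower (0.0576%) at 28D, and 749 (8.62%) had an unadjusted p below 0.05. All 11 were without overlap between the stages, as were 495 of the lncRNAs tested on the higher side (5.7%) and 550 on the lower side (6.33%). LOC102093299, annotated as a lncRNA, had 134, 87.6 and 26.3 TPM at 28D, against 2.20, 3.24 and 2.00 TPM at 14D (log2 change 4.74 on the log2(TPM + 0.1) scale; limma, adjusted p = 0.0343). The entry G8641 had 10.4, 6.57 and 8.60 TPM at 28D, against 1.71, 1.21 and 1.07 TPM at 14D (log2 change 2.59; limma, adjusted p = 0.0325). The entry G22819 had 0.782, 0.766 and 1.21 TPM at 28D, against 25.6, 10.9 and 13.4 TPM at 14D (log2 change -3.96; limma, adjusted p = 0.00965). Each was separated between stages by more than 3-fold. LOC110357280, annotated as a lncRNA, was listed at 0 in all 3 libraries at 28D, against 1.33, 2.27 and 0.614 TPM at 14D (limma, adjusted p = 0.046). The entry GeneID:110365575, the largest rise, had 11.4, 14.1 and 16.2 TPM at 28D and was listed at 0 in all 3 libraries at 14D (limma, adjusted p = 0.0325). Its call was lost without any one library and was the only lncRNA call made without the 1D libraries (adjusted p = 0.00406). Only G22819 was called in each of the 6 fits without 1 library, but not without the 1D libraries (adjusted p = 0.109), and the calls over the table ranged from 2 to 17 in those 6 fits. The entries of the lncRNA table together made up 21.5% ± 1.49 of the summed TPM at 28D, against 23.7% ± 2.71 at 14D (SD, n = 3 each), a difference within the spread of the libraries by an exact 2-sided permutation test (p = 0.3, where 0.1 is the smallest it can give). The 5 most abundant entries alone made up 10.7% to 13.7% of the summed TPM at 28D, against 11.2% to 16.1% at 14D. The first of them, G22683, had 40668, 40536 and 54433 TPM at 28D, against 66363, 52797 and 67904 TPM at 14D, with overlapping stages (limma, adjusted p = 0.545). Of the 1604 entries matched to RefSeq, 218 were annotated there as protein-coding, so the share is not of lncRNAs only.

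**Figure D5:**
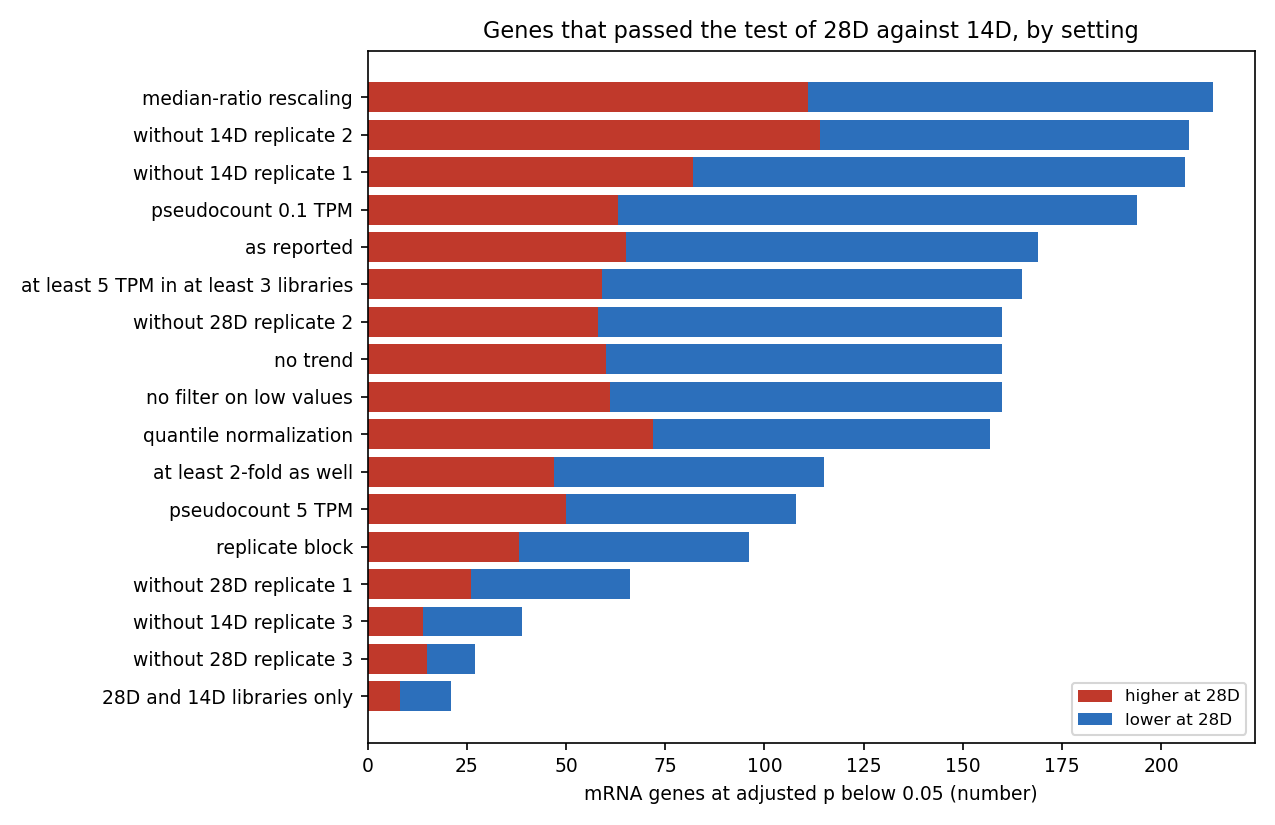
Number of mRNA genes called higher and lower at 28D under each setting, stacked in 1 bar per setting. The count is 169 with the settings used throughout, 21 without the 1D libraries, and 27 to 207 when 1 of the 6 libraries is left out.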

How the data were processed

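The deposited tables hold TPM values made by the authors, 1 table for mRNA (12918 genes) and 1 for lncRNA (9158 entries). STAR 2.6.0c and Cufflinks 2.1.1 are named in the submitters' processing notes; their roles, the genome build, the annotation, strandedness and the method behind TPM are not given in the sources used here. In each table, 3 value columns match no label and were not used. TPM keeps no depth, so no interval from counting was possible.

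Symbols came from the files' gene IDs matched to RefSeq (assembly bColLiv1.pat.W.v2): 12256 of 12918 mRNA IDs and 1604 of 9158 lncRNA IDs, used for names and neighbours only. No sequences are given.

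Values were log2-transformed from the deposited TPM with a pseudocount of 1 TPM (mRNA) or 0.1 TPM (lncRNA), which understates the change of low genes. Genes with at least 1 TPM (lncRNA 0.1 TPM) in at least 3 of 9 libraries were kept. A model with 1 mean per stage (1D, 14D, 28D) was fitted with limma 3.58.1 in R 4.3.3 (eBayes with trend), the contrast was 28D minus 14D, and p-values were adjusted by Benjamini-Hochberg over each whole table. Python 3.11.15 with pandas 2.3.3, scipy 1.17.1 and matplotlib 3.10.9 did the rest. Fold ratios are ratios of mean TPM. In a simulation with 200 changed genes, the mRNA fit recovered 63 of 100 at log2 1 and 89 of 100 at log2 2. Of its 166 calls, 14 were false. The lncRNA fit recovered 0 and 28 of 100, with 3 false among 31. These figures describe the simulation only, and recovery and false calls in the deposited libraries were not tested.

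The comparison, the gene lists and the tests were chosen with earlier results of these data known. Named genes were the 10 largest rises and falls among called genes that averaged at least 5 TPM in either stage and did not overlap, up to 4 called members of each list (or the 2 most abundant where none was called), a preset group (MSTN, IGF1, MYOG, MYOD1, PAX7, TNNT3, TNNC1, MB, PPARGC1A, PDK4, LPL, CPT1A, FBXO32, DGAT2), and up to 5 lncRNAs per direction with a mean of at least 1 TPM. The text gives some of these. The genes called in both fits, the remaining list members with values, AHCY, VIM, CPZ, COL20A1, COL4A6, BSG, HMGB2, LMNB1 and LAMB3 were named after their values were seen. Alternatives were the pseudocount, the filter, rescaling by median ratio, quantile normalization, a fit without the 1D libraries, a replicate block, no trend, a 2-fold minimum and leaving out each library.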

Additional observations from a re-analysis of the deposited data

How the results depend on the processing

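The mRNA fit called 169 genes in all. In place of these, 21 were called without the 1D libraries (19 shared with the 169), 108 with a pseudocount of 5 TPM (106 shared), 96 with a replicate block (87 shared) and 27 to 207 with 1 library left out; counts under the other settings (157 to 213, and 115 with a 2-fold minimum) stayed within 1.5 times. The lncRNA fit called 11 entries; in place of these, 1 was called without the 1D libraries, 1 with the replicate block, 17 with a pseudocount of 1 TPM (8 shared) and 2 to 17 with 1 library left out. The lncRNA share differed by -3.80 to -1.33 percentage points with 1 library left out. Same-numbered libraries did not deviate together (mRNA correlations 0.05, -0.02 and -0.04), and differently numbered ones gave -0.08 to 0.09. No pairing by number was seen, and a weak pairing would not show in this measure. Of the 156 mRNA genes followed, 68 kept direction and side of the threshold without the 1D libraries, 109 with the block, 140 with rescaling and 133 with quantile normalization. Signs turned only in uncalled genes: SLN (-0.12 to 1.12 over leave-one-out fits), MYOG (-0.64 to 0.076), TNNT3 (-0.19 to 0.0073) and FBXO32 (-0.22 to 0.76), and under quantile normalization ACTA1 (0.18) and TNNI2 (-0.28); the cause was not tested. With 3 libraries a stage and unknown depth, a missed threshold does not show that levels were equal.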
